A study of Mus musculus with 16 samples.

Results

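Transcripts of 9 genes of adrenergic and cyclic AMP signalling were followed in mouse hearts that lack carnitine palmitoyltransferase 2 (CPT2), an enzyme of the inner mitochondrial membrane needed to burn long-chain fatty acids. The 9 genes were taken by symbol from the deposited gene tables, which together hold 19628 distinct symbols, and all 9 were present in both tables and passed the filter on low counts. They encode the receptors Gpr22, Adrb1, Adra1a and Adra1b, the receptor partner Ramp1, the adenylyl cyclases Adcy5 and Adcy6, and the phosphodiesterases Pde4d and Pde3a. The genes were selected on their measured difference between CPT2H-KO and wild type hearts. Their values in that comparison are therefore given as a description, without a test, and only the comparison of double with single knockouts is tested.

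The first comparison sets 5 CPT2H-KO hearts, whose cardiomyocytes carry the deletion of CPT2, against 5 wild type hearts. The second sets 3 hearts of the CPT2/USP30 double KO against 3 of the CPT2 single KO, so that by its label every heart in it carries the CPT2 deletion, and the double KO hearts also that of USP30, a mitochondrial deubiquitinase that restrains mitophagy. The single KO hearts carry the genotype label CPT2H-KO as well, but stand in the other table. For the USP30 deletion the labels name a floxed allele, USP30 fl/fl, and Myh6-Cre, which acts in cardiomyocytes of atria and ventricles. The sources used here do not give the driver used for CPT2 or the age, sex, strain and litter of the mice. Each library is total RNA of a heart sample, in which fewer cells of a type and less RNA per cell cannot be told apart.

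Noradrenaline released by sympathetic nerves acts in the heart through beta and alpha-1 adrenergic receptors. The beta-1 receptor activates the stimulatory G protein Gs and, through it, adenylyl cyclases, whose product cyclic AMP activates protein kinase A (PKA) and raises the rate and force of the beat until phosphodiesterases break it down. Alpha-1 receptors act through Gq and phospholipase C instead. Gpr22 is an orphan receptor found mainly in heart and brain that couples to the inhibitory protein Gi, and Ramp1 joins the calcitonin receptor-like receptor Calcrl to form the receptor for the vasodilator peptide CGRP.

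Totals were 54674422 to 131049342 counts in CPT2H-KO libraries and 55905339 to 132762776 in wild type libraries, against 11779115 to 12734379 in double KO and 11067969 to 13532716 in single KO libraries. Values below are normalised read counts (CPM, counts scaled to a common library size) within its own table, and levels are not compared between tables. Cpt2 averaged 40.4 ± 5.72 CPM in CPT2H-KO hearts and 77.9 ± 15.2 CPM in wild type hearts (SD, n = 5 each), a log2 fold change of -0.95 (SE 0.15, edgeR adjusted p = 9.71e-04). Usp30 averaged 9.39 ± 1.68 CPM in double KO hearts and 21.03 ± 2.23 CPM in single KO hearts (SD, n = 3 each), with no overlap and a log2 fold change of -1.16 (SE 0.18, edgeR adjusted p = 0.147). Cpt2 in the second table was at 177 ± 11.4 CPM in double KO and 173 ± 8.72 CPM in single KO hearts (SD, n = 3 each), with no wild type heart in that table to set it against. Markers of ventricular and shared cardiomyocytes summed to 50020 to 58186 CPM in CPT2H-KO hearts and 55253 to 62645 CPM in wild type hearts, and none was at 0.

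Atrial transcripts set some libraries apart. Myl7, the atrial regulatory light chain, was at 14.1, 0.496, 0.285, 0.610 and 144 CPM in CPT2H-KO hearts 1 to 5, against 194, 47.6, 82.8, 97.7 and 25.4 CPM in wild type hearts 1 to 5. It was at 1.49, 102 and 425 CPM in double KO hearts, against 0.0813, 0.0749 and 0.458 CPM in single KO hearts. CPT2H-KO hearts 2, 3 and 4, all single KO hearts and double KO heart 1 thus held almost no atrial RNA by this marker. The 6 atrial markers summed to 8.12 to 560 CPM in CPT2H-KO and 73.7 to 642 CPM in wild type hearts, and to 54.7 to 1843 CPM in double KO and 22.4 to 28.2 CPM in single KO hearts. Y-linked transcripts were present in 3 of 5 CPT2H-KO and 4 of 5 wild type hearts, and in 0 of 3 double KO and 2 of 3 single KO hearts. For results that move with these libraries, values without them are given below.

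All receptor transcripts and Ramp1 were lower in CPT2H-KO than in wild type hearts, Gpr22 most of all, while the cyclase and phosphodiesterase transcripts lay closer together. Of the 9 genes, 8 had a log2 fold change below 0, as did 50.9% of all 14123 genes tested, and the median of the 9 was -1.04 beside -0.01 over all genes. In 5 of the 9 genes every CPT2H-KO heart was below every wild type heart, which held for 13.2% of all genes. These counts follow from how the genes were chosen.

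Gpr22, the orphan receptor, was at 1.13, 1.29, 1.24, 0.827 and 1.04 CPM in CPT2H-KO hearts 1 to 5, against 34.2, 33.5, 27.6, 24.0 and 17.1 CPM in wild type hearts 1 to 5. The CPT2H-KO hearts lay within a narrow band near 1 CPM and the wild type hearts far above it. The means were 1.10 ± 0.184 CPM in CPT2H-KO hearts and 27.3 ± 7.12 CPM in wild type hearts (SD, n = 5 each), or 24.7-fold lower in CPT2H-KO hearts. The log2 fold change of -4.64 (SE 0.21) was the third lowest of the 14123 genes tested. The CPT2H-KO values rest on 57 to 121 counts a library. CPT2H-KO heart 5, with Myl7 at 144 CPM, was as low in Gpr22 as the hearts with almost no Myl7, and without those 3 hearts the log2 fold change was -4.66.

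Gpr22 (NCBI gene 73010) lies on chr12:31706867-31713947 of GRCm38, on the minus strand, inside the gene Cog5 on the opposite strand. GENCODE annotates no exon base shared between the pair, and reads in an intron of Cog5 could be told from Gpr22 only by strand, which the sources used here do not give for the counting. Cog5, a subunit of a Golgi tethering complex, averaged 15.5 ± 1.77 CPM in CPT2H-KO hearts and 22.7 ± 0.771 CPM in wild type hearts (SD, n = 5 each), a log2 fold change of -0.55 (SE 0.08, edgeR adjusted p = 6.74e-04). The change in Cog5 was much smaller than the difference in Gpr22. The Cog5 total does not measure reads in its intron, and their part in the Gpr22 counts was not tested.

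Ramp1, which turns Calcrl into a CGRP receptor, was at 0.435, 0.281, 0.325, 0.583 and 1.09 CPM in CPT2H-KO hearts 1 to 5, against 5.29, 4.17, 4.10, 6.70 and 5.16 CPM in wild type hearts. The groups did not overlap, and the highest CPT2H-KO value came from heart 5, which also had the highest Myl7 of its group. Means were 0.544 ± 0.329 CPM in CPT2H-KO hearts and 5.08 ± 1.06 CPM in wild type hearts (SD, n = 5 each), 9.35-fold lower in CPT2H-KO hearts. On the log2 scale the difference was -3.15 (SE 0.33), the 30th lowest of all genes tested, from 16 to 127 counts in each CPT2H-KO library. Without the 3 CPT2H-KO hearts low in Myl7 it was -2.65. Ramp1 (NCBI gene 51801) lies on chr1:91179822-91225196, plus strand.

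The promoters of these 2 genes are shown because they had the lowest folds of the 9, and that of Adrb1 because it is the only one of the 3 with a match to a short cyclic AMP response element, TGACG. The bases lie before the annotated start, 5′ to 3′ on the gene's strand, from RefSeq on GRCm38.p6: chr12:31713948-31714133 (minus) for Gpr22, chr1:91179572-91179821 (plus) for Ramp1 and chr19:56721867-56722116 (plus) for Adrb1. Capitals mark the match, which is not a known site.
Gpr22: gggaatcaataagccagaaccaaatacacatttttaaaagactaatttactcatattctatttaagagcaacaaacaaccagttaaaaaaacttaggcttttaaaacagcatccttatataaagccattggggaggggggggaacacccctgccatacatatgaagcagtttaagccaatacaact
Ramp1: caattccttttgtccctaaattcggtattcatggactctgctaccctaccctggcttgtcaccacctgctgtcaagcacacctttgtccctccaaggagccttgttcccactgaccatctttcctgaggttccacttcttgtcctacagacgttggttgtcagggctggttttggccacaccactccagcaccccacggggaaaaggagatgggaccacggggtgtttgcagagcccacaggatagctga
Adrb1: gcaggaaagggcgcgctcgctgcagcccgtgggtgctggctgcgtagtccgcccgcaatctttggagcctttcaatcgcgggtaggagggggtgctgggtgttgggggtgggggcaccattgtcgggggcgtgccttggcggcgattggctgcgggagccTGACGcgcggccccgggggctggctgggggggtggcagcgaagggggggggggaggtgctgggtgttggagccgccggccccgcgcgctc
The windows differ in base composition. All values here are for the full window of 250 bases before the RefSeq start, of which the line for Gpr22 shows the first 186, those before its first annotated exon. The Gpr22 window was 39.6% G or C with 1 CpG (36.0% and 0 in the bases shown), the Ramp1 window 54.0% with 4, and the Adrb1 window 74.0% with 24, beside a median of 52.4% and 6 CpG over 32851 mouse promoter windows of 250 bases. In those 250 bases, on both strands, the searches were for TGACGTCA (in 1.55% of all windows), its shorter form TGACG (17.8%), CACGTG (6.02%), TGATGNAAN (3.44%), AGATAA (9.99%), the MEF2 element (0.508%) and the CArG box (1.47%). TGACG also occurs inside TGACGTCA. Gpr22 and Ramp1 matched none of them, and Adrb1 matched TGACG at 90 to 86 bases before its start. Of the other 3 genes with a window, Pde4d matched AGATAA, and Adra1b, with a pair of windows, and Adcy5 matched none.

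**Figure D1:**
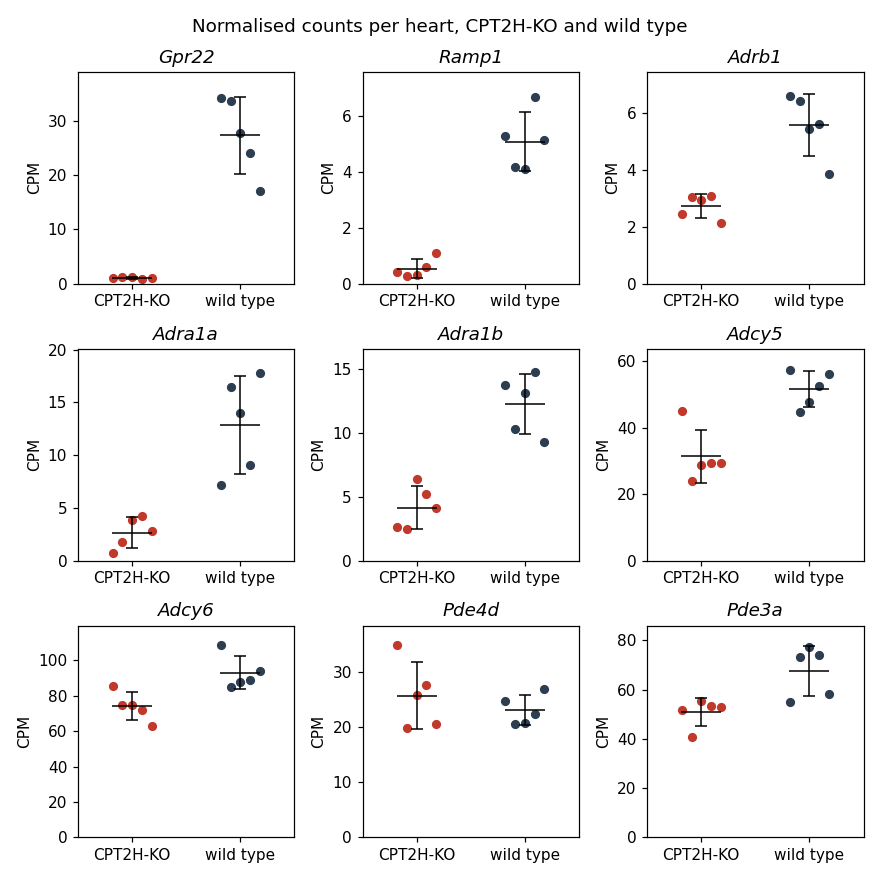
Normalised counts (CPM, linear axes from 0) of the 9 genes in each of 5 CPT2H-KO and 5 wild type hearts, each gene in its own panel. Points are hearts, ordered 1 to 5 from left to right within a group, the horizontal line is the mean and the bars are 1 SD. The groups are apart in Gpr22, Ramp1, Adrb1, Adra1a and Adra1b and overlap in the other 4 panels.

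Adrb1, the beta-1 receptor and main target of noradrenaline in cardiomyocytes, was at 2.47, 3.06, 2.95, 3.08 and 2.13 CPM in CPT2H-KO hearts, against 6.60, 6.43, 5.44, 5.64 and 3.87 CPM in wild type hearts. Every CPT2H-KO heart was below every wild type heart, and heart 5 was the lowest of each group. The means of 2.74 ± 0.418 and 5.60 ± 1.09 CPM in CPT2H-KO and wild type hearts (SD, n = 5 each) differed 2.04-fold, a log2 fold change of -1.04 (SE 0.16). Adrb1 (NCBI gene 11554) lies on chr19:56722199-56733113, plus strand.

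Among the alpha-1 receptors, Adra1a differed more than Adra1b. Adra1a (chr14:66635251-66771168, plus strand) was at 0.672, 1.74, 3.86, 4.22 and 2.81 CPM in CPT2H-KO hearts, against 7.15, 16.4, 14.0, 9.02 and 17.7 CPM in wild type hearts. It was the most variable receptor within wild type hearts, where its order was the exact reverse of the order of Myl7. In CPT2H-KO hearts Adra1a did not follow that reverse order, and among double KO hearts it was lowest in the heart lowest in Myl7. Its means were 2.66 ± 1.47 CPM in CPT2H-KO and 12.9 ± 4.62 CPM in wild type hearts (SD, n = 5 each), a log2 fold change of -2.26 (SE 0.41), or -2.80 without the 3 CPT2H-KO hearts low in Myl7.

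Adra1b (chr11:43774606-43901210, minus strand) was at 2.63, 2.48, 6.39, 5.18 and 4.09 CPM in CPT2H-KO hearts, against 13.8, 10.3, 13.1, 14.7 and 9.25 CPM in wild type hearts. CPT2H-KO hearts 3 and 4 were the highest of their group for both alpha-1 receptors, and still below all wild type hearts. Mean Adra1b was 4.15 ± 1.67 CPM in CPT2H-KO and 12.2 ± 2.35 CPM in wild type hearts (SD, n = 5 each), a log2 fold change of -1.56 (SE 0.25). Per kilobase of exon, Adra1a made up 18.9% ± 5.79 of the sum of Adra1a and Adra1b in CPT2H-KO hearts and 29.2% ± 11.4 in wild type hearts (SD, n = 5 each), ranges that overlapped.

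The cyclases, which make cyclic AMP under Gs and are held back by Gi, differed less than the receptors. Adcy5 (chr16:35154877-35305738, plus strand) was at 45.0, 24.0, 28.9, 29.5 and 29.5 CPM in CPT2H-KO hearts, against 57.4, 44.8, 47.8, 52.5 and 56.4 CPM in wild type hearts. Only CPT2H-KO heart 1, at 44.99 CPM, reached the lowest wild type heart at 44.81 CPM. The means were 31.4 ± 7.95 and 51.8 ± 5.42 CPM in CPT2H-KO and wild type hearts (SD, n = 5 each), a log2 fold change of -0.72 (SE 0.15). Leaving out the 3 CPT2H-KO hearts low in Myl7 brought it to -0.48.

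Adcy6 (chr15:98589973-98610076, minus strand) was at 85.6, 74.8, 75.0, 72.2 and 63.2 CPM in CPT2H-KO hearts, against 108, 85.2, 87.8, 88.6 and 93.9 CPM in wild type hearts. Heart 1 was again the highest of the CPT2H-KO group and the only one inside the wild type range. Adcy6 averaged 74.1 ± 8.01 and 92.8 ± 9.32 CPM in CPT2H-KO and wild type hearts (SD, n = 5 each), a log2 fold change of -0.32 (SE 0.09). A share of its exons, 605 bases, overlaps the antisense gene Gm29331. Per kilobase of exon, Adcy5 made up 28.3% ± 3.79 of the sum of Adcy5 and Adcy6 in CPT2H-KO hearts and 34.5% ± 1.42 in wild type hearts (SD, n = 5 each). The highest CPT2H-KO share, 33.17%, lay next to the lowest wild type share, 33.19%.

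The phosphodiesterases, which break down cyclic AMP, overlapped between the groups. Pde4d (chr13:108449948-109953461, plus strand) was at 34.9, 19.8, 25.8, 27.7 and 20.6 CPM in CPT2H-KO hearts, against 24.7, 20.7, 20.8, 22.4 and 27.0 CPM in wild type hearts. It averaged 25.8 ± 6.10 and 23.1 ± 2.71 CPM in CPT2H-KO and wild type hearts (SD, n = 5 each), and was the only one of the 9 with a log2 fold change above 0, 0.16 (SE 0.15), which turned to -0.13 under scaling by library totals. Pde3a (chr6:141249269-141507448, plus strand) was at 51.8, 40.8, 55.3, 53.3 and 52.8 CPM in CPT2H-KO hearts, against 54.9, 73.2, 77.3, 74.1 and 58.0 CPM in wild type hearts. Wild type hearts 1 and 5 lay near the CPT2H-KO hearts and the other wild type hearts above. Its means were 50.8 ± 5.74 and 67.5 ± 10.3 CPM in CPT2H-KO and wild type hearts (SD, n = 5 each), a log2 fold change of -0.41 (SE 0.12). The antisense gene Gm28523, which shares 741 exon bases with Pde3a, had 0.315 CPM in CPT2H-KO and 0.391 CPM in wild type hearts on average.

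**Figure D2:**
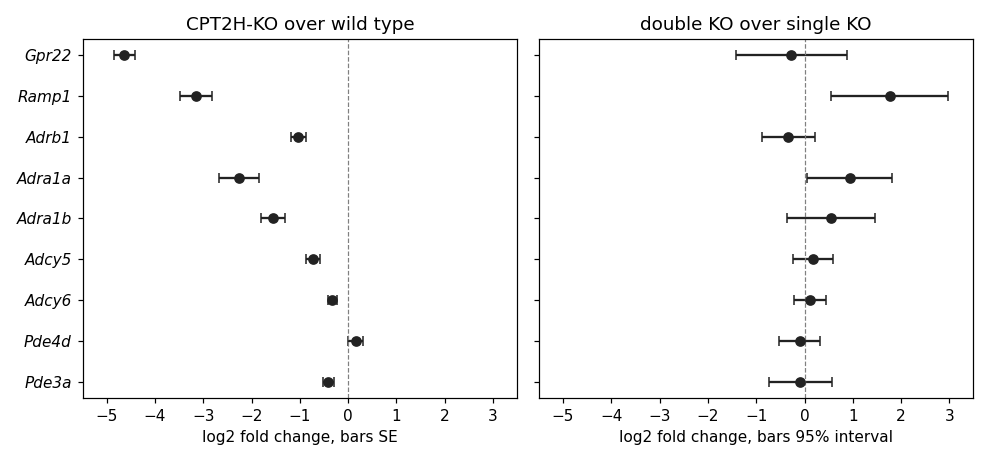
Log2 fold changes of the 9 genes from edgeR, CPT2H-KO over wild type on the left (bars are the SE, no test) and double over single KO on the right (bars are the 95% interval), on the same scale. The left panel runs from Gpr22 at -4.64 to Pde4d at 0.16, and on the right the intervals of Ramp1 and Adra1a alone lie above 0, though Adra1a turned to -0.13 without double KO hearts 2 and 3.

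The order of the 9 transcripts by level differed between the groups mainly in the place of Gpr22. Divided by exon length, the mean levels in CPT2H-KO hearts ran from Adcy6 at 10.9 through Adcy5 at 4.37, Pde3a at 3.99, Pde4d at 2.15, Adra1b at 1.23, Adrb1 at 0.810, Adra1a at 0.305 and Gpr22 at 0.240 to Ramp1 at 0.180 CPM per kilobase. Neighbours in this order did not overlap between Adcy6 and Adcy5, Pde3a and Pde4d, and Adrb1 and Adra1a. In wild type hearts the order was Adcy6 at 13.7, Adcy5 at 7.21, Gpr22 at 5.92, Pde3a at 5.30, Adra1b at 3.62, Pde4d at 1.93, Ramp1 at 1.68, Adrb1 at 1.66 and Adra1a at 1.47 CPM per kilobase, with gaps only after Adcy6 and after Adra1b. Gpr22 was by its mean the most abundant receptor transcript of the 9 in wild type hearts and the least abundant receptor transcript in CPT2H-KO hearts, where its range overlapped that of Adra1a.

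Among the genes most like Gpr22 across the 10 libraries were Hspb2, a small heat shock protein of muscle, Trdn, the triadin of the calcium release complex, and Ppip5k2, an inositol phosphate kinase. Their Pearson r with Gpr22 in log2 CPM was 0.990, 0.984 and 0.984, among 11324 genes compared, and all libraries shared the difference between the groups. After the group means were subtracted r was 0.67, 0.67 and 0.20. Their own log2 fold changes, -0.81, -0.79 and -1.35, were much smaller than that of Gpr22.

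The genes most like Ramp1 were Slc16a12, a solute carrier, Tfpi, an inhibitor of coagulation, Acta2, the smooth muscle actin, and Phkg1, a subunit of phosphorylase kinase. Their r was 0.983, 0.983, 0.982 and 0.981 over the 10 libraries and 0.87, 0.77, 0.92 and 0.79 after the group means were subtracted. Acta2 averaged 34.9 ± 16.0 CPM in CPT2H-KO and 117 ± 26.8 CPM in wild type hearts (SD, n = 5 each), and its highest CPT2H-KO value, 62.7 CPM, was in heart 5, as for Ramp1. Acta2 is itself 1 of the 8 markers of smooth muscle and pericytes. The 8 summed to 169 to 252 CPM in CPT2H-KO and 225 to 330 CPM in wild type hearts. Past the threshold 1 was higher and 2 were lower, beside 16.7% and 17.0% of all genes, and none was at 0. The median log2 fold change of the 8 was -0.14, beside -0.01 over all genes. The part of smooth muscle in the Ramp1 difference was not tested.

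Beyond the 9 genes, 12 lists with 168 genes of the same pathways were counted, of which 146 were tested in the first comparison. The lists were chosen with earlier results of these data known, so their counts describe these hearts and are no independent test. At an edgeR adjusted p under 0.05, 23 were higher and 34 lower in CPT2H-KO hearts, 39.0% in all, beside 16.7% higher and 17.0% lower of all genes and 33.7% in all. Their median log2 fold change was -0.01, the same as over all genes. When libraries were scaled by their totals alone, which moved the median of all genes by -0.27, 9 were higher and 62 lower.

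Of the other adrenergic receptors tested, 1 of 3 changed, beside 33.7% of all genes. Adra2b, an alpha-2 receptor that couples to Gi, fell to 0.466 ± 0.126 CPM in CPT2H-KO hearts, against 0.915 ± 0.0740 CPM in wild type hearts (SD, n = 5 each; log2 fold change -0.96, SE 0.21, edgeR adjusted p = 0.00515). Its call was lost in a fit with the mean level of atrial transcripts as a covariate. Adra1d, the remaining alpha-1 receptor, was at 1.64 ± 0.922 and 1.27 ± 0.246 CPM in CPT2H-KO and wild type hearts (edgeR adjusted p = 0.449). Adrb3, Adra2a and Adra2c were not analysed here in this comparison.

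Of the 5 partners of CGRP and adrenomedullin signalling tested, 1 rose and 1 fell, beside 16.7% and 17.0% of all genes. Ramp2, the partner that makes Calcrl an adrenomedullin receptor, fell to 12.97 ± 1.21 CPM in CPT2H-KO hearts, against 17.1 ± 1.70 CPM in wild type hearts (log2 fold change -0.40, SE 0.09, edgeR adjusted p = 0.00596), a call lost with the atrial covariate. Ramp3 was higher, at 1.74 ± 0.818 and 0.929 ± 0.172 CPM in CPT2H-KO and wild type hearts (log2 fold change 0.91, SE 0.30, edgeR adjusted p = 0.0350), a call lost in 10 of 19 alternatives, among them the removal of CPT2H-KO heart 1, 2 or 5 or wild type heart 1, 2, 3 or 4, where its log2 fold change ran from 0.66 to 0.93. Without the 3 CPT2H-KO hearts low in Myl7 it was 1.42. Calcrl itself was at 18.2 ± 2.21 and 21.7 ± 2.19 CPM in CPT2H-KO and wild type hearts (edgeR adjusted p = 0.0635). The peptide Adm had a log2 fold change of 0.27 (edgeR adjusted p = 0.416) and Crcp, a component of the CGRP receptor complex, a value of -0.04 (edgeR adjusted p = 0.756). Calcr, Calca and Calcb were not analysed here in this comparison. The log2 fold change of Ramp1, -3.15, lay below those of Ramp2, Ramp3 and Calcrl.

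Other receptors that act through Gs or Gi changed in both directions. Of 13 tested, 3 were higher and 4 lower, beside 16.7% and 17.0% of all genes. Chrm2, the muscarinic receptor of the vagus, fell to 19.7 ± 14.0 CPM in CPT2H-KO hearts, against 94.5 ± 10.3 CPM in wild type hearts (log2 fold change -2.25, SE 0.39, edgeR adjusted p = 0.00152). It was highest, at 41.9 and 25.2 CPM, in CPT2H-KO hearts 5 and 1, which also held the most Myl7 of their group (with the atrial covariate its log2 fold change was -1.53, and without the 3 CPT2H-KO hearts low in Myl7 it was -1.49). Ptger3, a prostaglandin E receptor, rose to 1.87 ± 0.372 CPM in CPT2H-KO hearts, against 0.306 ± 0.214 CPM in wild type hearts (log2 fold change 2.59, SE 0.39, edgeR adjusted p = 7.87e-04). Vipr2, a receptor for vasoactive intestinal peptide, rose with a log2 fold change of 0.95. Adora2a, an adenosine receptor, fell with -0.88, a call lost with the atrial covariate.

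Among the brakes on receptors, 6 of 13 kinases, arrestins and RGS proteins fell and 1 rose, beside 17.0% and 16.7% of all genes. Rgs2, which shuts off Gq, fell to 5.07 ± 1.42 CPM in CPT2H-KO hearts, against 24.8 ± 1.75 CPM in wild type hearts (log2 fold change -2.29, SE 0.17, edgeR adjusted p = 1.3e-05). Rgs6, Grk6 and Rgs5 fell as well, with log2 fold changes of -1.56, -0.42 and -0.25, and the call of Rgs5 was lost without the 3 CPT2H-KO hearts low in Myl7. Of 16 G protein subunits 4 rose and none fell, 25% called beside 33.7% of all genes. The 4 were Gna12 with a log2 fold change of 0.56, Gnb1 with 0.44, Gng12 with 0.41 and Gnaq, the alpha subunit used by alpha-1 receptors, with 0.35. The calls of the last 3 were lost with library totals as the scaling.

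Of the other 6 cyclases tested, Adcy9 fell to 12.2 ± 1.09 CPM in CPT2H-KO hearts, against 20.4 ± 0.916 CPM in wild type hearts (log2 fold change -0.74, SE 0.07, edgeR adjusted p = 5.1e-05). Adcy7 rose with a log2 fold change of 0.68, a call lost with library totals and with the atrial covariate. Of 16 other phosphodiesterases 2 rose and none fell, 12.5% called beside 33.7% of all genes. Pde8a rose with a log2 fold change of 0.88 and Pde3b with 0.64. The call of Pde3b was lost with library totals, while without the 3 CPT2H-KO hearts low in Myl7 its log2 fold change was 0.98.

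Downstream, the endogenous PKA inhibitors Pkig and Pkia both fell with a log2 fold change of -1.09, to 20.8 ± 2.35 and 34.9 ± 4.66 CPM in CPT2H-KO hearts, against 44.3 ± 2.98 and 74.0 ± 17.3 CPM in wild type hearts (edgeR adjusted p = 1.6e-05 and 6.81e-04). Prkar1a, the regulatory subunit that holds PKA inactive without cyclic AMP, rose to 226 ± 55.6 CPM in CPT2H-KO hearts, against 121 ± 19.3 CPM in wild type hearts (log2 fold change 0.90, SE 0.16, edgeR adjusted p = 0.00207). Akap7, an anchor of PKA, fell with a log2 fold change of -0.52, a call lost with the atrial covariate and without the 3 CPT2H-KO hearts low in Myl7. In all, 1 of the 16 PKA subunits, inhibitors and anchors rose and 3 fell, 25% called beside 33.7% of all genes.

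A list of 17 cyclic AMP effectors held Epac and popeye genes and channels, and also transcription regulators such as Creb1 and Crtc1. Of these 17 genes 4 rose and 4 fell, beside 16.7% and 17.0% of all genes. Hcn4, the pacemaker channel that cyclic AMP opens, fell to 0.288 ± 0.118 CPM in CPT2H-KO hearts, against 4.31 ± 0.488 CPM in wild type hearts (log2 fold change -3.85, SE 0.24, edgeR adjusted p = 4.1e-06). Markers of conduction and sinus node cells summed to 63.1 to 97.0 CPM in CPT2H-KO and 79.8 to 109 CPM in wild type hearts, 1 of the 7 tested being lower, and their part was not tested. The cyclic AMP sensor Rapgef4, also called Epac2, rose with a log2 fold change of 0.68 and the popeye protein Bves fell with -0.39.

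Of 17 PKA targets and phosphatases of the cardiomyocyte, 7 fell and 2 rose, beside 17.0% and 16.7% of all genes. Phospholamban, Pln, the brake on the calcium pump that PKA releases, fell to 999.6 ± 137 CPM in CPT2H-KO hearts, against 2127 ± 242 CPM in wild type hearts (log2 fold change -1.09, SE 0.12, edgeR adjusted p = 9.3e-05). Troponin I, Tnni3, the calcium channel subunit Cacnb2 and phospholemman, Fxyd1, fell with log2 fold changes of -1.03, -1.19 and -0.61. Of the 8 markers of ventricular and shared cardiomyocytes, 5 were lower and none higher, at a median of -0.43. On the Gq limb, 3 rose and 4 fell of 16, beside 16.7% and 17.0% of all genes. Rcan1, a target and inhibitor of calcineurin, rose with 1.33 and the kinase Prkce with 0.56, while the phospholipase Plcb2 fell with -1.37.

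Of 8 genes listed for catecholamine synthesis, uptake and breakdown, 1 was higher and 3 lower, beside 16.7% and 17.0% of all genes. Dbh, which makes noradrenaline from dopamine, fell to 0.150 ± 0.112 CPM in CPT2H-KO hearts, against 1.92 ± 0.600 CPM in wild type hearts (log2 fold change -3.57, SE 0.43, edgeR adjusted p = 1.98e-04), on 2 to 38 counts a CPT2H-KO library. Ddc, which makes dopamine, and Maob, which oxidises it, fell with log2 fold changes of -2.75 and -2.20. Of the 10 markers of Schwann cells and neurons 4 were tested and none changed, and they summed to 5.04 to 6.58 CPM in CPT2H-KO and 5.47 to 6.32 CPM in wild type hearts.

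**Figure D3:**
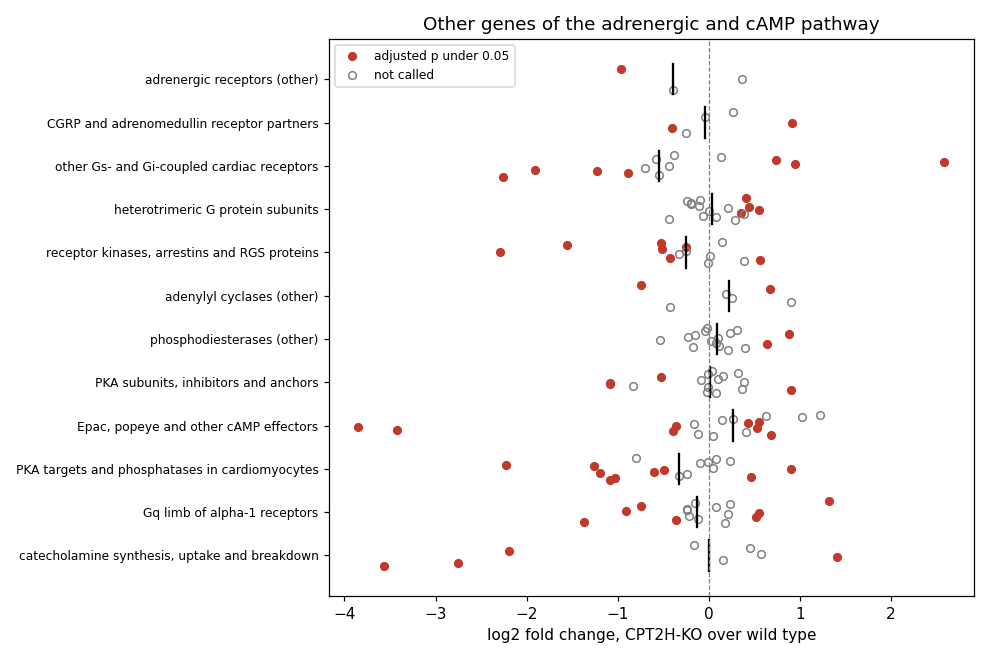
Log2 fold changes, CPT2H-KO over wild type, of the other genes in 12 pathway lists, each list in its own row. Filled points passed an edgeR adjusted p under 0.05, open points did not, and the black bar is the median of the list. Hcn4 at -3.85 and Dbh at -3.57 lie farthest left and Ptger3 at 2.59 farthest right.

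The second comparison asked whether losing USP30 as well moved these transcripts in hearts labelled as CPT2 knockouts. None of the 9 passed the threshold, and none of the 12997 genes tested with edgeR did, at a lowest adjusted p of 0.127. At an unadjusted edgeR p under 0.05 there were 942 genes, or 7.25%, and 2 of the 9, Ramp1 and Adra1a. DESeq2 called 124 genes and limma-voom called 0. In 1 of the 9, Ramp1, every double KO heart was above every single KO heart, which held for 6.69% of all genes. The median log2 fold change of the 9 was 0.11, beside 0.0027 over all genes. It was above 0 in 5 of the 9 and in 50.4% of all genes. The p-values set the difference between the groups against the spread between these hearts.

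Ramp1 was at 1.83, 3.97 and 3.89 CPM in double KO hearts 1 to 3, against 1.63, 0.898 and 0.275 CPM in single KO hearts 1 to 3. Double KO heart 1 lay just above the highest single KO heart and the other 2 well above. These values rest on 22, 48 and 48 counts in double KO hearts and 20, 12 and 3 counts in single KO hearts. The means were 3.23 ± 1.22 CPM in double KO and 0.933 ± 0.677 CPM in single KO hearts (SD, n = 3 each), a log2 fold change of 1.76 (SE 0.54, 95% interval 0.54 to 2.98, edgeR adjusted p = 0.465). Double KO hearts 2 and 3 held 102 and 425 CPM of Myl7, and without them the log2 fold change was 0.94. The covariate of atrial transcripts gave 0.76, but it hardly varied among single KO hearts, so its slope came mainly from the double KO hearts. A term for Y-linked transcripts, present in 2 single KO hearts and no double KO heart, gave 3.51. That fit in effect sets the double KO hearts against single KO heart 3 alone, the heart with 3 counts. The fit without single KO heart 1 gave 2.38. The smooth muscle markers summed to 553 to 676 CPM in double KO and 516 to 553 CPM in single KO hearts, none past the threshold, and their part was not tested.

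Gpr22 was at 1.33, 6.54 and 5.43 CPM in double KO hearts, against 7.32, 3.07 and 5.77 CPM in single KO hearts. The groups overlapped, with double KO heart 1 lowest of the 6 hearts. It averaged 4.43 ± 2.75 CPM in double KO and 5.39 ± 2.15 CPM in single KO hearts (SD, n = 3 each), a log2 fold change of -0.28 (SE 0.51, 95% interval -1.42 to 0.87, edgeR adjusted p = 0.947). The interval leaves room for a difference of either sign. Without double KO heart 1 the value was 0.15, without double KO hearts 2 and 3 it was -2.01, and with the atrial covariate it was -2.34.

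Adrb1 was at 14.4, 26.6 and 26.6 CPM in double KO hearts, against 29.5, 33.4 and 22.7 CPM in single KO hearts. Its ranges overlapped, and the log2 fold change was -0.34 (SE 0.24, 95% interval -0.89 to 0.21, edgeR adjusted p = 0.844). The means were 22.6 ± 7.03 CPM in double KO and 28.5 ± 5.40 CPM in single KO hearts (SD, n = 3 each). Without double KO hearts 2 and 3 the log2 fold change of Adrb1 was -0.99, with the atrial covariate -1.15, and with the term for Y-linked transcripts -0.01. With the term for Y-linked transcripts, single KO heart 3 alone stands for its group.

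Adra1a was at 7.05, 24.0 and 13.0 CPM in double KO hearts, against 9.27, 5.77 and 8.06 CPM in single KO hearts. The groups overlapped through double KO heart 1, and the log2 fold change was 0.93 (SE 0.39, 95% interval 0.06 to 1.81, edgeR adjusted p = 0.654). It turned to -0.13 without double KO hearts 2 and 3 and to -0.21 with the atrial covariate. The sign for Adra1a thus depended on the hearts that held atrial transcripts.

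Adra1b was at 11.9, 42.7 and 44.1 CPM in double KO hearts, against 28.5, 18.8 and 20.1 CPM in single KO hearts. Double KO hearts 2 and 3 were above and heart 1 below all single KO hearts. The log2 fold change was 0.55 (SE 0.41, 95% interval -0.36 to 1.46, edgeR adjusted p = 0.847). Without double KO heart 1 it was 0.95 (edgeR adjusted p = 0.0439), and without double KO hearts 2 and 3, the pair with atrial transcripts, it was -0.92 (-1.30 with the atrial covariate). Over 15 alternatives its edgeR, DESeq2 or limma adjusted p ran from 0.0439 to 1.00. The sign for Adra1b therefore depended on which double KO hearts were kept.

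Adcy5 was at 58.1, 88.8 and 90.3 CPM in double KO hearts, against 64.4, 75.5 and 69.7 CPM in single KO hearts (log2 fold change 0.18, SE 0.18, 95% interval -0.24 to 0.59, edgeR adjusted p = 0.896). Adcy6 was at 252, 329 and 279 CPM in double KO hearts, against 274, 271 and 249 CPM in single KO hearts (log2 fold change 0.11, SE 0.15, 95% interval -0.23 to 0.45, edgeR adjusted p = 0.927). Both cyclases overlapped between the groups. Without double KO hearts 2 and 3 their log2 fold changes were -0.27 and -0.0778, and with the atrial covariate -0.41 and -0.0762. The share of Adcy5 in the sum of both, per kilobase of exon, was 20.5% ± 2.76 in double KO and 19.96% ± 1.56 in single KO hearts (SD, n = 3 each).

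Pde4d was at 25.3, 37.8 and 40.7 CPM in double KO hearts, against 33.8, 35.6 and 42.1 CPM in single KO hearts (log2 fold change -0.10, SE 0.19, 95% interval -0.53 to 0.33, edgeR adjusted p = 0.950). Pde3a was at 28.5, 71.5 and 62.7 CPM in double KO hearts, against 58.0, 49.6 and 65.1 CPM in single KO hearts (log2 fold change -0.09, SE 0.29, 95% interval -0.74 to 0.57, edgeR adjusted p = 0.981). In both genes double KO heart 1 was the lowest of the 6 hearts. Without it their log2 fold changes were 0.0805 and 0.22. Without double KO hearts 2 and 3 they were -0.56 and -1.02, and with the atrial covariate -0.72 and -1.25.

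**Figure D4:**
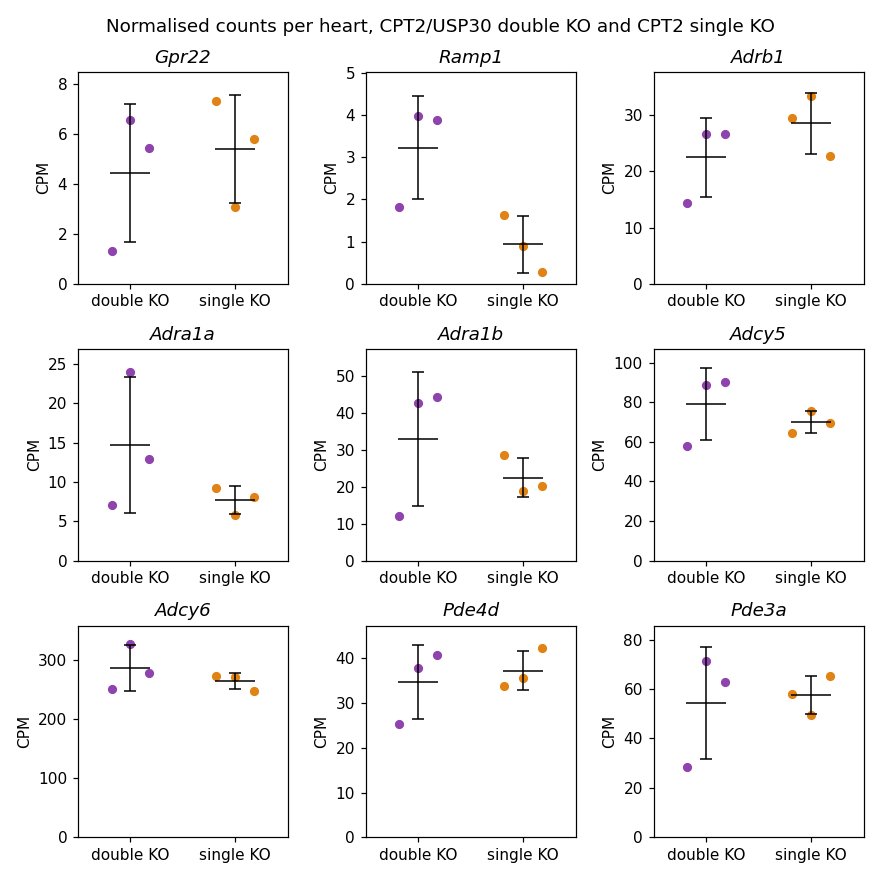
Normalised counts (CPM, linear axes from 0) of the 9 genes in each of 3 double KO and 3 single KO hearts. Points are hearts, ordered 1 to 3 from left to right within a group, the horizontal line is the mean and the bars are 1 SD. Only in Ramp1 are the groups apart, and double KO heart 1 is the lowest double KO point in all 9 panels.

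Double KO heart 1 was the lowest double KO heart for 9 of the 9 genes, as it was for 40.6% of 12994 genes, and lay below all single KO hearts for 6 of the 9, as it did for 34.1% of those genes. It had almost no Myl7, like the single KO hearts and unlike the other double KO hearts. Among CPT2H-KO hearts, those with Myl7 under 1 CPM, hearts 2, 3 and 4, were all above hearts 1 and 5 in Adrb1. In Adcy5 they were all below them, but hearts 4 and 5 were level at 29.53 CPM when rounded. In the other 7 genes they were neither all above nor all below.

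Per kilobase of exon, double KO hearts had Adra1b at 9.74, Adrb1 at 6.67, Adra1a at 1.68, Ramp1 at 1.07 and Gpr22 at 0.962 CPM per kilobase, and single KO hearts had Adrb1 at 8.44, Adra1b at 6.64, Gpr22 at 1.17, Adra1a at 0.882 and Ramp1 at 0.309 CPM per kilobase. In double KO hearts the ranges of Adra1b and Adrb1 overlapped and lay above those of the other 3, which overlapped in turn. Of the other pathway genes 143 were tested in this comparison, and none passed the edgeR threshold. An unadjusted edgeR p under 0.05 was found for 15 of the 143, beside 7.25% of all genes.

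**Figure D5:**
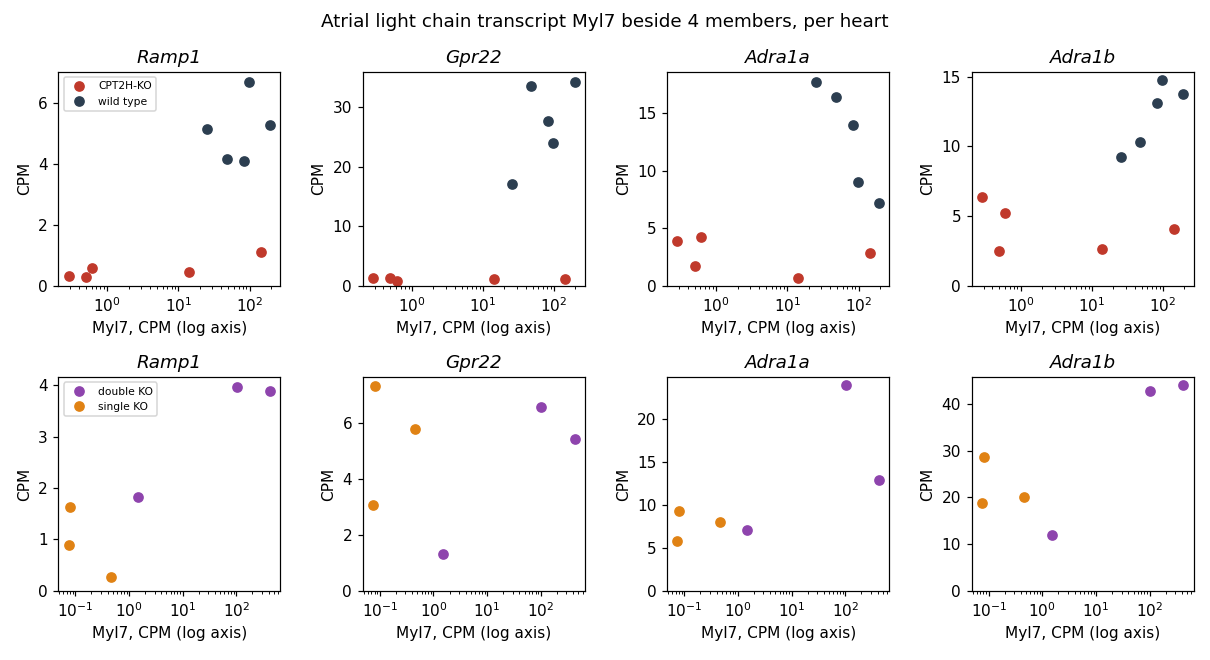
Normalised counts (CPM, linear axis from 0) of Ramp1, Gpr22, Adra1a and Adra1b against Myl7 (CPM, log axis) in each heart, with CPT2H-KO and wild type above and double and single KO below. In the upper row the CPT2H-KO hearts are below all wild type hearts at any Myl7, and in the lower row the double KO hearts with Myl7 at 102 and 425 CPM are above all single KO hearts in Ramp1, Adra1a and Adra1b.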

How the data were processed

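RNA of 16 mouse hearts was sequenced. Per the labels' protocols, a PureLink kit with a DNase step gave the RNA, and ribosomal RNA was depleted before stranded libraries were made. Per the submitters' processing notes, bcl2fastq, HISAT2 and DESeq2 1.42.0 were used with the build mm10. The sources used here do not give the counting program, annotation or strand setting. The authors deposited 2 tables of raw counts per gene, not normalised. The first, with 14138 genes and no row total under 151, holds CPT2H-KO and wild type hearts. The second, with 17831 genes, of which 521 were at 0 in every library, holds double and single KO hearts. A row with no gene name was left out. Groups are from the sample titles, and each table was analysed on its own.

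The test on counts was that of edgeR 4.0.16 (R 4.3.3), with filterByExpr, TMM scaling, a quasi-likelihood F test and Benjamini-Hochberg adjustment over all genes, at a threshold of 0.05. The SE is the size of the log2 fold change over the root of F. The test was checked on simulated data. CPM uses TMM-scaled totals, and levels per kilobase use GENCODE M21 exon lengths on GRCm38, the mm10 assembly. Each library was counted as a replicate because its title names it a biological replicate. Within a group, library pairs differed by 10.7 times the sampling noise or more, which alone does not show that they are separate hearts. Depth limits the precision of low values: at the second table's totals of 11067969 to 13532716 counts, Ramp1 had 3 to 48 counts.

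The members and lists were chosen with earlier results of these data known. The named genes are the 9 members, Cpt2 and Usp30, up to 4 called genes with the smallest p of each of the 12 pathway lists, all genes of the lists of other adrenergic receptors and of CGRP partners, the 4 genes most correlated with Gpr22 and with Ramp1 (average log2 CPM of at least 0, prior count 2, predicted genes left out), and markers beside results they move with; a few of these genes are not reported here. Cog5, Gm28523 and Gm29331 were named for their position. Alternatives were DESeq2 1.42.0, limma-voom (limma 3.58.1), library totals and size factors as scaling, no filter, a sex term, a replicate block, an atrial covariate (mean log2 CPM of Myl7, Myl4 and Sln) and the removal of each library. Removals of libraries by their Myl7 level were added after the data were seen.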

Additional observations from a re-analysis of the deposited data

Results flagged for a closer look

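The 9 genes were checked in both groups of 5 hearts for a single heart far from the others, 18 checks in all, and 2 stood out, while chance gives about 1 in 20. Adcy5 was at 44.99 CPM in CPT2H-KO heart 1, and the other 4 CPT2H-KO hearts lay between 24.0 and 29.5 CPM. Pde3a was at 40.8 CPM in CPT2H-KO heart 2, below the other 4 CPT2H-KO hearts at 51.8 to 55.3 CPM.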

How the results depend on the processing

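In CPT2H-KO against wild type hearts, 8 of the 9 genes kept their direction under all 19 alternatives: the log2 fold change ran from -4.89 to -4.54 for Gpr22, -3.62 to -2.64 for Ramp1, -1.29 to -0.95 for Adrb1, -2.80 to -2.03 for Adra1a, -1.85 to -1.42 for Adra1b, -1.01 to -0.48 for Adcy5, -0.59 to -0.26 for Adcy6 and -0.69 to -0.34 for Pde3a. The exception was Pde4d, which reversed to -0.13 when libraries were scaled by their totals alone. That scaling moved the median of all genes by -0.27 and gave 827 genes higher and 4832 lower, and 9 pathway genes higher and 62 lower. The atrial covariate left 3103 genes called, 1485 of them lower. Leaving out 1 heart at a time gave 3682 to 4787 genes called and 51 to 60 pathway genes. Of 39 named pathway genes 27 kept their call under every alternative and none reversed. In double against single KO hearts, where edgeR called 0 genes, DESeq2 called 124, the atrial covariate 50, the fit without the pair of double KO hearts with Myl7 above 10 CPM 36, and the removal of 1 heart 0 to 114, with 114 without double KO heart 1 and 4 without single KO heart 3. Pathway genes called were 2 with the atrial covariate, 2 without that pair and 0 to 3 without 1 heart. With the atrial covariate the median of the 9 reversed to -0.72, and Adra1a to -0.21, Adra1b to -1.30, Adcy5 to -0.41 and Adcy6 to -0.0762. The covariate was at -0.14 to 0.25 log2 CPM in single KO hearts, against 1.82, 7.33 and 9.25 in double KO hearts. Its slope therefore came mainly from the double KO hearts, and it is not independent of the fit without the pair high in Myl7. Without that pair the median of the 9 reversed to -0.56, and Adra1a to -0.13, Adra1b to -0.92, Adcy5 to -0.27 and Adcy6 to -0.0778. That fit leaves 1 double KO heart, assumed to vary like the other group. Without double KO heart 1, Gpr22 reversed to 0.15, Pde4d to 0.0805 and Pde3a to 0.22, and Adra1b passed the threshold at 0.95; over the removals of 1 heart they ran from -0.67 to 0.15, -0.25 to 0.0805, -0.34 to 0.22 and 0.27 to 0.95. The causes were not tested. Ramp1 stayed above 0 in all 15 alternatives, at 0.76 to 3.51. The highest value came from the sex term, with which single KO heart 3 alone stands for its group. Same-numbered hearts correlated at -0.09 to 0.23 in the first comparison and -0.21 to 0.17 in the second, and 2 of 5 and 1 of 3 correlated best with their own number, so the numbers were not taken to pair the hearts. With the replicate block 4179 genes were called in the first comparison and 1 in the second. In the second table, counts as low as 3 limit what can be said of Ramp1.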
